A study of Mus musculus with 6 samples.

Results

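Nfe2l2, Keap1, Nqo1, Gclc, Gclm, Hmox1, Slc7a11, Gsr, G6pdx and Pgd were followed in mouse livers that carried a guide RNA against Prdx2 or a control guide. These 10 genes were chosen by symbol as the Nrf2 regulator, its repressor, classical targets of Nrf2 and the NADPH-producing steps of the pentose phosphate pathway. All 10 are among the 52459 genes of the count table, and each of the 10 was among the 17032 genes that passed the filter on low counts.

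RNA-Seq was performed on the livers of 6 male C57BL6J mice of the Alb-Cre/Cas9 F1 generation. In these mice the albumin promoter drives Cre and thereby directs Cas9 to hepatocytes, so that other liver cells should keep an intact Prdx2. By immunohistochemistry, the paper reported loss of PRDX2 protein in hepatocytes. It also saw islets that kept the protein and held them to be, most likely, cells that the vector had not reached. AAV8-U6-sgCtrl was given to 3 mice (sgCtrl 5.1, 7.1 and 7.2) and AAV8-U6-sgPrdx2 to 3 mice (sgPrdx2 1.1, 1.3 and 3.2) at an age of 4 to 5 weeks. Livers sgCtrl 7.1 and 7.2, and livers sgPrdx2 1.1 and 1.3, share the first part of their number, whose meaning the labels do not give, so that livers of a group may not be fully independent. Both groups received the carcinogen diethylnitrosamine (DEN, 100 mg/kg) 3 weeks afterwards and, from 1 week after DEN, a choline-deficient high-fat diet (CDAHFD) for 6 months, and were 8 months old by their labels. There was neither an untreated group nor a group on chow, so that every value below is from a diseased liver.

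Nrf2, encoded by Nfe2l2, is a transcription factor that Keap1 binds and hands over for degradation as long as the cell is not under oxidative or electrophilic stress. When Keap1 is modified on its cysteines, Nrf2 accumulates, pairs with a small Maf protein and binds antioxidant response elements near genes for glutathione synthesis, quinone detoxification, heme breakdown and NADPH production. NADPH is the electron donor that keeps glutathione and thioredoxin reduced, and thioredoxin in turn reduces peroxiredoxins such as Prdx2. Because Nrf2 is regulated mainly through the stability of its protein, its RNA level is not a measure of its activity.

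Promoter sequences are shown for genes that fell or lay lower without overlap (Slc7a11, Pgd, G6pdx) and for Gclm, an Nrf2 target whose groups overlapped. The antioxidant response element core was searched on both strands as TGACNNNGC or TGAGNNNGC, where N is any base, in the 300 bases from 250 before to 50 after the RefSeq start (GRCm38.p6). RefSeq promoters were at hand for 7 of the 10 genes, with 8 starts, and the promoters of Gclc, Hmox1 and Gsr were not analysed here. Capitals mark a match, written on the gene's own strand. The sequences are those of Slc7a11 (chr3:50443564-50443863, minus strand), the first start of Pgd (chr4:149166656-149166955, minus strand), G6pdx (chrX:74428831-74429130, minus strand) and Gclm (chr3:122245307-122245606, plus strand).
Slc7a11: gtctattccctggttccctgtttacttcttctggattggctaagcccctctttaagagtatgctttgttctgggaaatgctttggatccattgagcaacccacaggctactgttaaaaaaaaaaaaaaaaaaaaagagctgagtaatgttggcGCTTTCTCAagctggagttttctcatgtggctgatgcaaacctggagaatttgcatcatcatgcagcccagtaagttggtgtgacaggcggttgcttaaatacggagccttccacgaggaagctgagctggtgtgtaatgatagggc
Pgd: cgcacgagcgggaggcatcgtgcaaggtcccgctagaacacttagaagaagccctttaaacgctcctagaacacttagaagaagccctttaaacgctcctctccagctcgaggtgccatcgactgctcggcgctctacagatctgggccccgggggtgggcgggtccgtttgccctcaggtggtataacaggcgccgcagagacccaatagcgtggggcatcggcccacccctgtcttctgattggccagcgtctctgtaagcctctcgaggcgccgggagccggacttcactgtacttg
G6pdx: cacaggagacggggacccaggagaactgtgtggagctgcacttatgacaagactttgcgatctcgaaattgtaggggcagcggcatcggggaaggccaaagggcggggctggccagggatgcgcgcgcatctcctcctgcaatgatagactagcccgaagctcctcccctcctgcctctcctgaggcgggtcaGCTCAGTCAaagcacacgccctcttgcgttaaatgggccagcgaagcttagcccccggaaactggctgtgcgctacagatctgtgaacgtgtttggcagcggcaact
Gclm: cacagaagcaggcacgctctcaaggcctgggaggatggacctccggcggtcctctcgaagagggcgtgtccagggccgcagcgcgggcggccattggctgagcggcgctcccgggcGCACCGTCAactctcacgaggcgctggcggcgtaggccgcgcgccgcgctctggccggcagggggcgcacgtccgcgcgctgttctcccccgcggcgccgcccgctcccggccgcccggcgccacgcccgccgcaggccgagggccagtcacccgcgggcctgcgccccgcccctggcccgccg
TGACNNNGC was found in the promoters of Nfe2l2, Gclm, G6pdx and Pgd, which is 4 of the 8 starts, against 12.4% of all 32851 promoters of the same length. The matches read TGACTCCGC at -240 in Nfe2l2, TGACGGTGC at -134 in Gclm and TGACTGAGC at -57 in G6pdx, those of Gclm and G6pdx on the opposite strand. The match of Pgd, TGACATTGC at +4, belongs to its other start and lies in transcribed sequence. TGAGNNNGC was found in the promoter of Slc7a11 alone among these starts, as TGAGAAAGC at -97 on the opposite strand, against 17.6% of all promoters. Thus genes with lower RNA and a gene with overlapping groups both held a match, and the match is a description of the letters in this window.

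Total counts ranged from 37462102 to 56865293 per liver, so that 3 counts stand for 0.0555 to 0.0921 CPM (counts per 1e6 counts of the TMM-scaled library), a floor that covers counting error only. Prdx2 itself had 109, 117 and 132 CPM in sgCtrl and 99.0, 112 and 149 CPM in sgPrdx2 livers (log2 fold change 0.01, SE 0.18, adjusted p 0.983). A Cas9 cut can leave the RNA level in place, so this level checks neither the label nor the editing. Liver sgPrdx2 3.2 stood apart on the first principal component (44.9% of the variance), at 61.0 against 10.9 and 19.7 in the other sgPrdx2 livers. Hepatocyte markers were higher in sgPrdx2 livers for 12 of 12 genes, of which 8 passed the test (Uox and Ttr among them), and their summed level was 81365 to 88515 CPM in sgCtrl and 142118 to 193641 CPM in sgPrdx2. Macrophage markers were lower for 12 of 12 genes, of which Gpnmb and Mpeg1 passed the test, with sums of 4109 to 4804 and 2759 to 3556 CPM. Of the other marker lists, tumor and progenitor markers were lower for 9 of 12 genes, with Cd44, Ly6d, Golm1 and Prom1 called, and their summed level was 66.5% of that in sgCtrl. Stellate cell and myofibroblast markers were lower for 7 of 8 genes with 0 called by edgeR (5 at an unadjusted p under 0.05, 3 called by DESeq2) and a sum of 68.5%, and endothelial markers for 7 of 8 with Pecam1 called and a sum of 82.7%. Cholangiocyte and ductular markers were lower for 7 of 8 genes, with 0 called by edgeR, Muc1 called by DESeq2 and a sum of 76.6%. Lymphocyte markers were lower for 6 of 8 genes, with Cd8a called and a sum of 90.6%. Neutrophil markers were lower for 4 of 5 tested genes, with 0 called by edgeR or DESeq2 and a sum of 80.6% over all 6 listed. Over all genes tested, edgeR called 3.33% and DESeq2 13.8%. In whole liver, fewer cells of a type and less RNA per cell cannot be told apart, and the part of cell composition in the results below was not tested.

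Hmox1, Slc7a11 and Pgd fell in sgPrdx2 livers, and none of the 10 rose by edgeR or DESeq2. Called genes are those with an adjusted p under 0.05 in edgeR's quasi-likelihood test over all genes, which holds for 3.33% of the genes tested (1.79% higher and 1.54% lower in sgPrdx2). That is 305 higher and 262 lower, against 206 higher and 3041 lower with libraries scaled by total counts and 70 higher and 919 lower with 6 housekeeping genes. DESeq2 called 13.8% of the genes with an adjusted p, and 24.9% of the genes tested had an unadjusted p under 0.05 in edgeR. On the log2 scale, 8 of the 10 genes lay lower and 2 (Keap1 and Gclm) higher, where 51.7% of all genes tested lay lower, and Keap1 and Gclm turned to the lower side when libraries were scaled by total counts or by 6 housekeeping genes. The median log2 fold change was -0.51 over the 10 genes and -0.02 over all genes. In 5 genes (Hmox1, Slc7a11, Gsr, G6pdx, Pgd) every sgPrdx2 liver lay below every sgCtrl liver, as it did in 17.5% of all genes, out of 34.2% whose groups were apart in either direction. These calls lie close to the threshold. Without sgCtrl 5.1, sgCtrl 7.2, sgPrdx2 1.1 or sgPrdx2 1.3, edgeR called 0 genes in the whole table, although 3114 to 3993 genes had an unadjusted p under 0.05 (DESeq2 was not run on these subsets), so that no call reported here passes the threshold in these subsets.

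**Figure D1:**
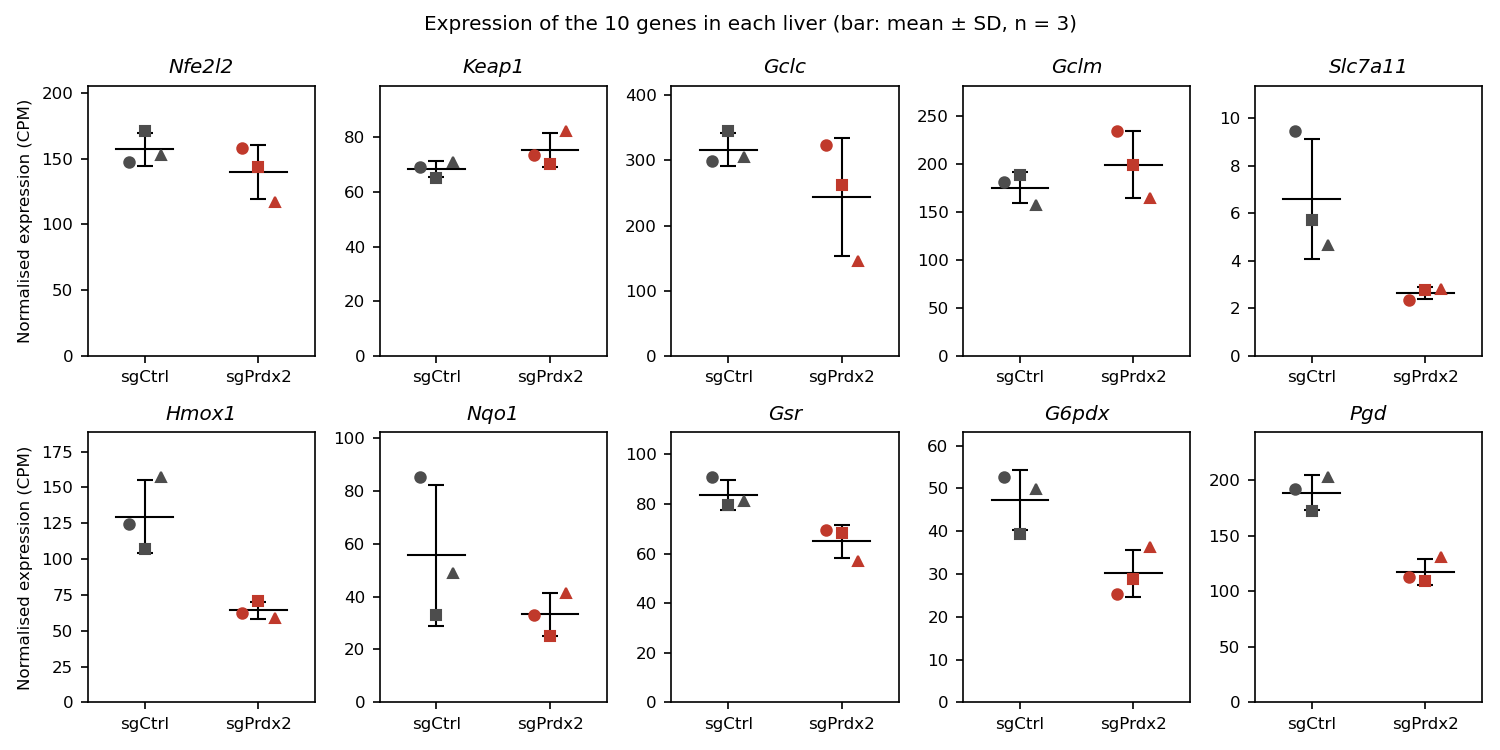
Normalised expression (CPM, linear axes from 0) of the 10 genes, with 1 point per liver, circles, squares and triangles for sgCtrl 5.1, 7.1 and 7.2 (grey) and for sgPrdx2 1.1, 1.3 and 3.2 (red), and bars for mean ± SD (n = 3). The groups are apart for Slc7a11, Hmox1, Gsr, G6pdx and Pgd, and the single high sgCtrl point of Nqo1 (85.0 CPM) is liver 5.1.

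Among the regulators, Nfe2l2 (2:75675513-75704641 in GRCm38, minus strand) had 147, 171 and 153 CPM in sgCtrl livers and 158, 144 and 117 CPM in sgPrdx2 livers. The groups overlapped, and the log2 fold change of -0.17 (SE 0.15) did not pass the test (adjusted p 0.524) and was -0.045 without sgPrdx2 3.2. Keap1 (9:21229730-21239361, minus strand), the adaptor that brings Nrf2 to its ubiquitin ligase, had 69.2, 65.3 and 70.9 CPM in sgCtrl and 73.3, 70.3 and 82.3 CPM in sgPrdx2 livers. Its levels overlapped as well, and its log2 fold change was 0.14 (SE 0.12, adjusted p 0.514) and -0.24 under scaling by total counts or by housekeeping genes. Without sgPrdx2 3.2 it was 0.081. Of the stretches of 50 bases in the exons of Keap1, 8.11% are shared with Gm16754 on the opposite strand. If strand was not used, reads there could have been left uncounted or counted for the wrong gene. The log2 ratio of Nfe2l2 to Keap1 within a liver was 1.20 in sgCtrl and 0.88 in sgPrdx2, a difference of -0.31 (two-sided exact permutation test p = 0.3, adjusted over 6 ratios 0.36) that was -0.13 without sgPrdx2 3.2, where 0.1 is the smallest p that 3 livers against 3 can give.

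None of 17 tested partners and regulators of Nrf2 was called by edgeR or DESeq2 (5 had an unadjusted p under 0.05 in edgeR, a share near that of all genes), with 14 lower, 3 higher and a median log2 fold change of -0.20. The smallest p-values were those of Maff, a small Maf partner of Nrf2 (-0.55, SE 0.18, adjusted p 0.119), Btrc, a ubiquitin ligase adaptor that acts on Nrf2 (0.31, adjusted p 0.150), Sqstm1, the p62 protein that sequesters Keap1 (-0.50, adjusted p 0.151), and Trim21 (-0.40, adjusted p 0.155). Sqstm1 had 742, 932 and 936 CPM in sgCtrl and 607, 730 and 512 CPM in sgPrdx2 livers, without overlap between the groups.

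Of the genes for glutathione supply, Slc7a11 fell and both subunits of glutamate-cysteine ligase had overlapping groups. Slc7a11 (3:49892526-50443614, minus strand), the cystine importer of system xc-, was detected at low level, with 414, 257 and 245 reads (9.46, 5.72 and 4.66 CPM) in sgCtrl and 104, 150 and 92 reads (2.37, 2.77 and 2.83 CPM) in sgPrdx2 livers. The 3 sgPrdx2 livers lay close together below the lowest sgCtrl liver, and the mean was 40.2% of that in sgCtrl (6.61 ± 2.52 against 2.66 ± 0.25 CPM, SD, n = 3). The log2 fold change was -1.31 (SE 0.28, adjusted p 0.0491), and it was -0.97 (adjusted p 0.120) without sgCtrl 5.1, the liver with the highest level. Slc7a11 lost its call when any of the 6 livers was left out, with adjusted p between 0.0668 and 0.160. Its partner chain Slc3a2 (4F2 heavy chain) had 136, 116 and 162 CPM in sgCtrl and 78.9, 87.4 and 102 CPM in sgPrdx2 livers and did not pass the test (-0.63, SE 0.17, adjusted p 0.0804), although DESeq2 called it lower. The log2 ratio of Slc7a11 to Slc3a2 overlapped between groups (difference -0.63, exact permutation p = 0.3), and the difference was -0.34 without sgCtrl 5.1.

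Gclc (9:77754535-77794485, plus strand), the catalytic subunit of glutamate-cysteine ligase, had 299, 345 and 305 CPM in sgCtrl livers and 324, 261 and 145 CPM in sgPrdx2 livers. Only sgPrdx2 3.2 was far below the other livers, and the log2 fold change of -0.38 (SE 0.27, adjusted p 0.417) was -0.10 without it. Gclm (3:122245557-122270732, plus strand), the modifier subunit, had 181, 188 and 157 CPM in sgCtrl and 234, 198 and 165 CPM in sgPrdx2 livers. The estimate for Gclm was 0.18 (log2, SE 0.17, adjusted p 0.520), and -0.18 and -0.17 under scaling by total counts and by housekeeping genes. It was 0.051 without sgPrdx2 1.1 and 0.31 without sgPrdx2 3.2. The log2 ratio of Gclc to Gclm, which does not depend on scaling, was 0.85 ± 0.12 in sgCtrl and 0.23 ± 0.36 in sgPrdx2 livers. The ratio was lower in 3 of 3 sgPrdx2 livers than in any sgCtrl liver (difference -0.63, exact permutation p = 0.1, adjusted 0.2), which is the smallest p of this design and does not pass 0.05.

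The 16 other genes of cystine uptake and of glutathione synthesis and turnover were evenly split, with 8 higher, 8 lower and 1 called in each direction (median 0.05). Of all genes, 3.33% were called. DESeq2 called 4 of the 16 against 13.8% of all genes, and 4 had an unadjusted p under 0.05 in edgeR against 24.9%. Cdo1, which oxidises cysteine toward taurine and thus away from glutathione, rose from 752 ± 107 to 1354 ± 114 CPM (0.85, SE 0.16, adjusted p 0.0441). Abcc5, an export pump for organic anions, fell from 45.8 ± 4.0 to 26.8 ± 4.8 CPM (-0.77, SE 0.16, adjusted p 0.0466). Chac2, a glutathione-degrading cyclotransferase, was at 0.51 on the log2 scale and did not pass the test (adjusted p 0.0920), although DESeq2 called it higher.

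Hmox1 (8:75093621-75100589, plus strand) encodes the inducible heme oxygenase, which opens heme to biliverdin, carbon monoxide and iron, and is a target of Nrf2 and of the heme-sensing repressor Bach1. It had 125, 107 and 157 CPM in sgCtrl and 62.7, 70.9 and 58.9 CPM in sgPrdx2 livers. Each sgPrdx2 liver was below each sgCtrl liver, and the mean fell to 49.5% (130 ± 25 against 64.2 ± 6.1 CPM). The log2 fold change was -1.01 (SE 0.17, adjusted p 0.0386), the smallest adjusted p of the 10 genes, and ranged from -1.13 to -0.85 when 1 liver was left out. The call was lost without sgCtrl 5.1, sgCtrl 7.2, sgPrdx2 1.1 or sgPrdx2 1.3 (adjusted p 0.0785 to 0.147).

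Hmox1 is also a gene of the macrophages that clear red cells, and macrophage markers were lower in sgPrdx2 livers as well. In sgCtrl livers 7.1, 5.1 and 7.2, the sums of macrophage markers were 4109, 4595 and 4804 CPM, and Hmox1 was at 107, 125 and 157 CPM. Within the sgPrdx2 group, liver 3.2 had the highest sum of macrophage markers (3556 CPM) and the lowest level of Hmox1 (58.9 CPM). The part of macrophages in the level of Hmox1 was not tested. The log2 ratio of Hmox1 to the summed macrophage markers was -5.20, -5.26 and -4.94 in sgCtrl and -5.46, -5.34 and -5.91 in sgPrdx2 livers. The ratio was lower in each sgPrdx2 liver (difference -0.44, and -0.26 without sgPrdx2 3.2, exact permutation p = 0.1, adjusted 0.2), with a gap between the groups of less than 0.1 on the log2 scale. None of the 12 other tested genes of heme and iron handling was called by edgeR (3 had an unadjusted p under 0.05 and DESeq2 called 1, Urod, shares near or under those of all genes), and 9 lay higher and 3 lower (median 0.16). Urod, an enzyme of heme synthesis, was at 0.74 (adjusted p 0.0677), the heme and hemoglobin scavengers of plasma Hpx and Hp at 0.57 (adjusted p 0.163) and 0.47 (adjusted p 0.193), and Fech, the last enzyme of heme synthesis, at 0.36 (adjusted p 0.218).

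**Figure D2:**
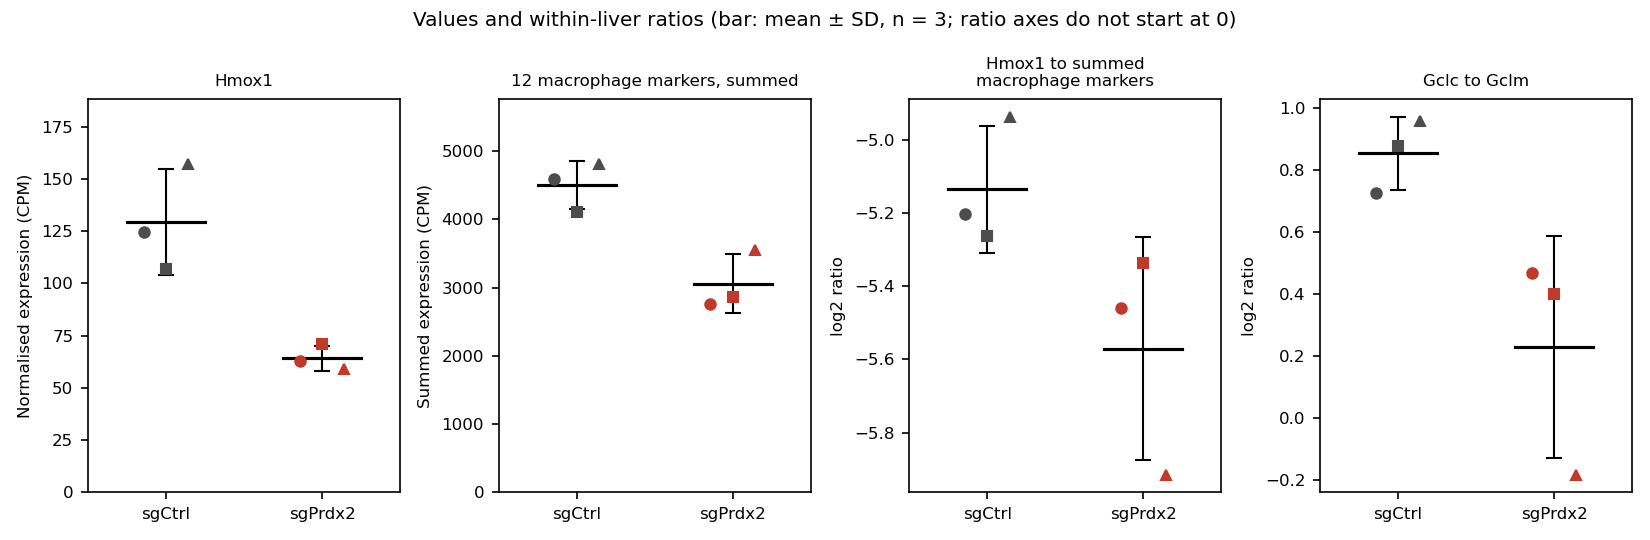
Expression of Hmox1 and of the 12 summed macrophage markers in CPM, and the log2 ratios of Hmox1 to these markers and of Gclc to Gclm, with 1 point per liver (symbols as in the plot of the 10 genes) and bars for mean ± SD (n = 3). The ratio axes do not start at 0, and in each of the 4 panels the 3 sgPrdx2 livers lie below the 3 sgCtrl livers.

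Nqo1 (8:107388225-107403206, minus strand), the quinone reductase that is often read as a marker of Nrf2 activity, had 85.0, 32.9 and 48.9 CPM in sgCtrl and 33.0, 25.3 and 41.4 CPM in sgPrdx2 livers. Liver sgCtrl 5.1 was high and the other 5 livers overlapped. The log2 fold change of -0.74 (SE 0.34, adjusted p 0.219) was -0.30 without sgCtrl 5.1. Relative to the summed hepatocyte markers, the log2 ratio of Nqo1 was -10.7 ± 0.7 in sgCtrl and -12.3 ± 0.1 in sgPrdx2 livers, without overlap. The difference was -1.67 (exact permutation p = 0.1, adjusted 0.2), and -1.28 without sgCtrl 5.1. The marker sum itself was 202% of that in sgCtrl and did not overlap between the groups. The ratio therefore cannot tell a change of Nqo1 from one of the markers. Gsr (8:33652523-33698163, plus strand), which uses NADPH to reduce oxidised glutathione, had 90.6, 79.4 and 81.1 CPM in sgCtrl and 69.3, 68.3 and 57.2 CPM in sgPrdx2 livers. The groups of Gsr did not overlap, and the log2 fold change of -0.37 (SE 0.13) did not pass the test (adjusted p 0.150).

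The 2 genes of the pentose phosphate pathway that yield NADPH in the cytosol both lay lower in sgPrdx2 livers, and Pgd passed the test. G6pdx (X:74409483-74429194, minus strand), which catalyses the entry step, had 52.6, 39.3 and 49.8 CPM in sgCtrl and 25.3, 29.0 and 36.2 CPM in sgPrdx2 livers. The groups were apart, and the log2 fold change of -0.65 (SE 0.17) had an adjusted p of 0.0788. G6pdx passed the test with DESeq2 (-0.63), without a filter (-0.66), under scaling by total counts (-1.03) or by housekeeping genes (-1.04), and without sgPrdx2 3.2 (-0.79). Since 10.5% of the 50-base stretches of G6pdx are shared with G6pd2 or Ikbkg, part of its reads could have been left uncounted or assigned elsewhere. Pgd (4:149149991-149166771, minus strand), the 6-phosphogluconate dehydrogenase, had 192, 172 and 202 CPM in sgCtrl and 112, 109 and 131 CPM in sgPrdx2 livers. All sgPrdx2 livers lay below the sgCtrl livers, and the mean fell to 62.2% (log2 fold change -0.69, SE 0.14, adjusted p 0.0466). The call of Pgd held without sgPrdx2 3.2 and was lost without any other liver, with adjusted p up to 0.168. The log2 ratio of G6pdx to Pgd was -2.01 in sgCtrl and -1.97 in sgPrdx2 livers (exact permutation p = 0.9).

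Of 9 other tested genes of the pentose phosphate pathway none was called by edgeR (3 had an unadjusted p under 0.05 against 24.9% of all genes, and DESeq2 called 1, Shpk, against 13.8%), 6 lay higher and 3 lower, and their median was 0.07. Pgls, the lactonase between G6pdx and Pgd, was at 0.60 (adjusted p 0.171). Shpk, which phosphorylates sedoheptulose, was at 0.68 (adjusted p 0.0741), Rpia, a ribose phosphate isomerase, at -0.46 (adjusted p 0.151), and Tkt, the transketolase, at -0.19 (adjusted p 0.470).

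Among 13 other genes of NADPH supply, 2 rose and 2 fell, with 7 higher, 6 lower and a median of 0.03. Of all genes, 1.79% were called higher and 1.54% lower. DESeq2 called 5 of the 13 against 13.8% of all genes, and 6 had an unadjusted p under 0.05 in edgeR against 24.9%. Me1, the cytosolic malic enzyme, had 50.6, 34.4 and 53.7 CPM in sgCtrl and 21.7, 21.6 and 23.1 CPM in sgPrdx2 livers, so that the groups were apart and the sgPrdx2 livers nearly equal (-1.06, SE 0.18, adjusted p 0.0373). Mthfd2, a mitochondrial enzyme of folate metabolism, fell from 8.34 ± 1.57 to 3.89 ± 0.90 CPM (-1.10, SE 0.23, adjusted p 0.0471). Aldh1l2, the mitochondrial counterpart of Aldh1l1, was named after its values were seen. It was at 1.09 ± 0.29 CPM in sgCtrl and 0.408 ± 0.077 CPM in sgPrdx2 livers and did not pass the test in edgeR (-1.42, SE 0.32, adjusted p 0.0541), whereas DESeq2 called it lower. Aldh1l1 and Mthfd1, enzymes of the cytosolic folate pathway of hepatocytes, rose. Aldh1l1, which releases NADPH as it oxidises formyl-tetrahydrofolate, had 322, 494 and 484 CPM in sgCtrl and 984, 812 and 885 CPM in sgPrdx2 livers (1.04, SE 0.20, adjusted p 0.0430). Mthfd1 rose from 115 ± 17 to 200 ± 20 CPM (0.79, SE 0.16, adjusted p 0.0466). Hepatocyte markers rose in the same livers, with a median log2 fold change of 0.98, and their part in these increases was not tested.

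**Figure D3:**
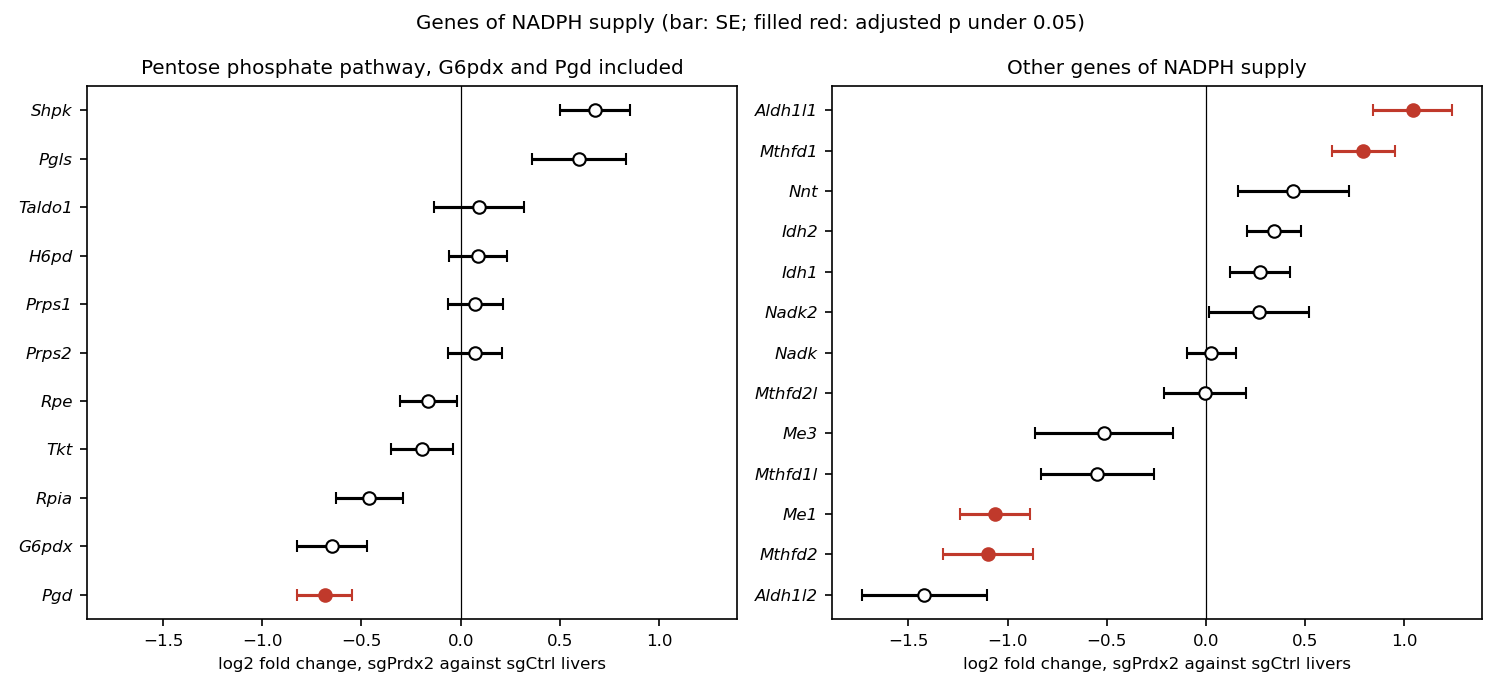
Log2 fold change of sgPrdx2 against sgCtrl livers for genes of the pentose phosphate pathway, G6pdx and Pgd included, and for the other genes of NADPH supply, with SE as bars and filled red points for an adjusted p under 0.05. G6pdx, Pgd, Me1, Mthfd2 and, furthest, Aldh1l2 (-1.42) lie to the left and Aldh1l1, Mthfd1, Shpk and Pgls to the right.

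Beyond the 10 genes, 32 other Nrf2 targets were tested, of which 3 fell and 1 rose (14 higher, 18 lower, median -0.19), where 3.33% of all genes were called. Of these 32, 12 had an unadjusted p under 0.05 in edgeR, against 24.9% of all genes. Relative to all genes, their median was -0.17, and it was -0.034 without sgCtrl 5.1, -0.056 without sgPrdx2 1.3, -0.091 without sgCtrl 7.2, -0.29 without sgCtrl 7.1 and -0.27 without sgPrdx2 3.2. Abcc1, an export pump for glutathione conjugates, was the most even, with 26.3, 26.3 and 26.1 CPM in sgCtrl and 13.6, 15 and 11.5 CPM in sgPrdx2 livers (-0.97, SE 0.13, adjusted p 0.0328). Srxn1, the sulfiredoxin that restores overoxidised peroxiredoxins, had 339, 230 and 302 CPM in sgCtrl and 141, 143 and 178 CPM in sgPrdx2 livers, with every sgPrdx2 liver lower (-0.91, SE 0.19, adjusted p 0.0466). Abcc4, another export pump, fell from 45.0 ± 26.0 to 11.9 ± 0.8 CPM (-1.91, SE 0.40, adjusted p 0.0486), and sgCtrl 5.1 held 71.8 CPM against 19.8 and 43.4 in the other sgCtrl livers. Akr7a5, an aldehyde reductase, rose from 99.7 ± 4.3 to 205 ± 53 CPM (1.04, SE 0.19, adjusted p 0.0409). DESeq2 called 6 of these 32 genes, against 13.8% of all genes. They were these 4 and, named after their values were seen, Txnrd1 (-0.53, adjusted p 0.105 in edgeR) and Mgst1 (0.68, adjusted p 0.0708 in edgeR).

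**Figure D4:**
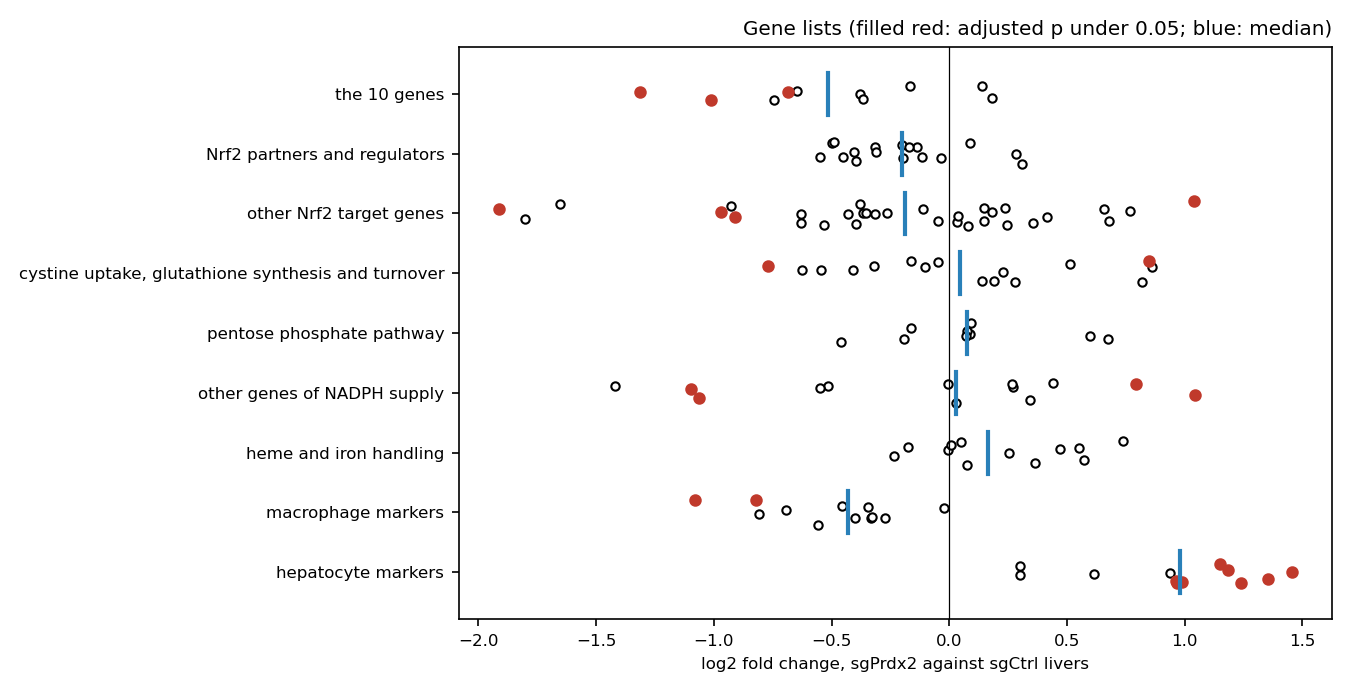
Log2 fold change of sgPrdx2 against sgCtrl livers for each tested gene (1 point each) of the 10 genes, 6 pathway lists and the macrophage and hepatocyte markers, with the list's median in blue and called genes in filled red. The median of the 10 genes is at -0.51, those of the pathway lists are between -0.20 and 0.16, and those of macrophage and hepatocyte markers are at -0.43 and 0.98.

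Liver sgCtrl 5.1 stood out among the sgCtrl livers for a part of the Nrf2 targets. It had the highest level of the 3 sgCtrl livers in 21 of the 32 other Nrf2 targets and in 4 of the 10 genes, while it was the highest in 34.4% of all genes tested. Against the mean of sgCtrl 7.1 and 7.2 it was 2.08 times as high for Nqo1 and 1.82 times for Slc7a11. For the rest of the 10 genes this ratio lay between 0.91 (Nfe2l2) and 1.18 (G6pdx), with 0.92 for Gclc and 0.94 for Hmox1. Over the 32 other targets it ran from 0.37 (Trib3) to 4.32 (Gpx2), with 1.04 for Txnrd1. Cbr3 and Gpx2, chosen after their values were seen, were 3.22 and 4.32 times as high in this liver, and their log2 fold changes went from -1.80 to -1.0 and from -1.65 to -0.58 without it. The 8 listed markers of cholangiocytes and ductular cells summed to 344 CPM in sgCtrl 5.1 and to 213 and 222 CPM in sgCtrl 7.1 and 7.2. Muc1 and Krt19, 2 of these 8 and chosen after their values were seen, had 71.6 and 94.2 CPM in sgCtrl 5.1. The other sgCtrl livers had 22.4 to 38.4 CPM of them, so that this pair need not stand for the whole list. Their part in the values of this liver was not tested.

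**Figure D5:**
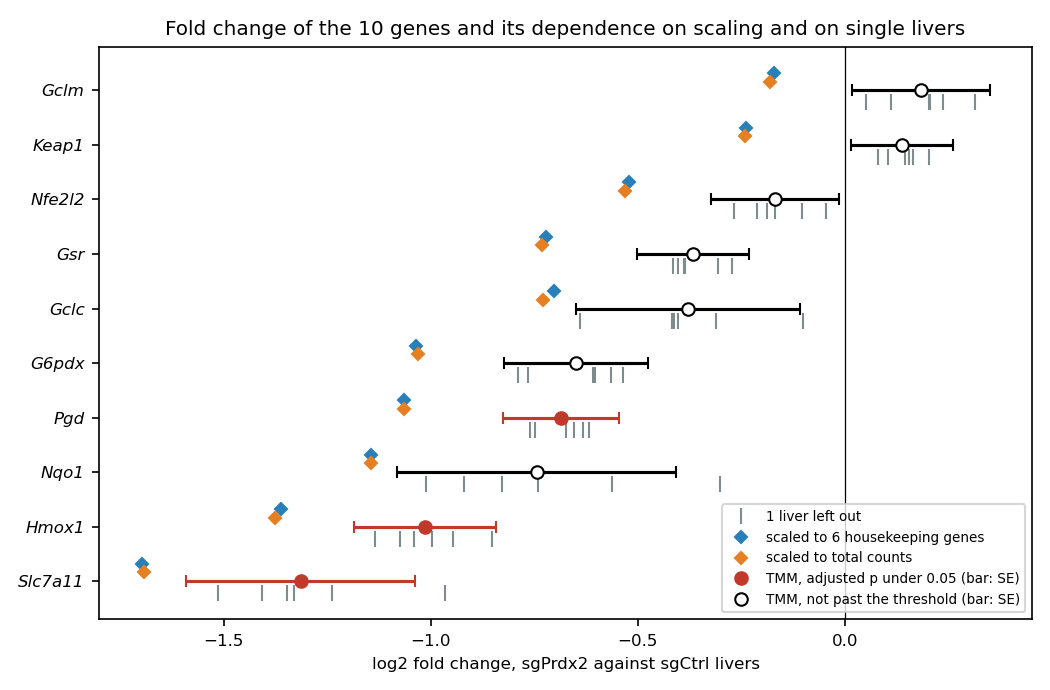
Log2 fold change of the 10 genes (circle, with SE as bar, filled red for an adjusted p under 0.05), with the value when 1 liver was left out (grey ticks) and under scaling by 6 housekeeping genes (blue) or by total counts (orange). Both scalings move each gene to the left and turn Gclm and Keap1, and the ticks spread most widely for Nqo1 and Slc7a11.

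Per kb of transcript, Gclc, Pgd and Hmox1 were the most abundant of the 10 genes in sgCtrl livers, at 92.4 ± 7.3, 85.1 ± 7.0 and 82.6 ± 16.1 CPM per kb, and these neighbours did not differ beyond their spread. Nfe2l2 (63.5 ± 5.0) and Gclm (53.1 ± 4.9) followed, then Nqo1 (35.8 ± 17.2), Gsr (31.3 ± 2.3), Keap1 (23.4 ± 1.0) and G6pdx (17.8 ± 2.6). Slc7a11 was the least abundant at 1.14 ± 0.43 CPM per kb. In sgPrdx2 livers, Hmox1 was at 40.9 ± 3.9 CPM per kb, below Gclm (60.4 ± 10.5), Nfe2l2 (56.5 ± 8.4) and Pgd (52.9 ± 5.3), whereas Gclc (71.1 ± 26.5) overlapped with these by its spread. With the longest transcript as the length, Gclm was at 31.3 and Keap1 at 18.9 CPM per kb in sgCtrl livers, and Gclm was at 35.6 ± 6.2 CPM per kb in sgPrdx2 livers, which puts its mean below that of Hmox1 within their spread, so that the order of Gclm and Hmox1 depends on the length used.

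The genes with the pattern most like that of Hmox1 over the 6 livers, by the root mean square distance of centred log2 CPM among 14122 genes, were Aldh18a1 (0.088), Emilin2 (0.108), Notch3 (0.110), App (0.113) and Atp8b4 (0.113). Those nearest to Keap1 were Gm42641, 2510039O18Rik, Hdgf, Tomm22 and Gna11, at distances of 0.022 to 0.029. These distances describe 6 livers, 3 of each group, and carry no test.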

How the data were processed

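RNA-Seq of 3 sgCtrl and 3 sgPrdx2 livers, 1 mouse each, was analysed. The authors deposited raw read counts per gene for each liver as whole numbers, without normalization. The submitters' processing notes name HISAT2, HTSeq, DESeq2 and GRCm38. Their versions, the gene annotation and the strand setting are not given in the sources used here. A table of the authors' own DESeq2 comparison (mean signal, fold changes and p-values) was not used.

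In R 4.3.3, edgeR 4.0.16 was used with filterByExpr (default settings, minimum count 10), TMM factors and the quasi-likelihood test of sgPrdx2 against sgCtrl without covariates, with Benjamini-Hochberg adjustment over all 17032 genes tested. The common biological coefficient of variation was 0.213. SE was obtained from the log2 fold change and F. The edgeR p-values set the group difference against the spread between these mice, estimated with information shared across genes. That spread could be too small if livers of a group are not independent. No pair of libraries of a group had counts within sampling noise (chi-square per degree of freedom 34.0 or more). Ratios within a liver were compared by two-sided exact permutation tests (SciPy 1.17.1), adjusted over 6 ratios. Lists were described by counts and medians, without a set test. The 10 genes and all lists were chosen with earlier results of these data known. Named are the 10 genes, every called gene and the 4 smallest p-values of each pathway list, and up to 2 genes of each marker list shown (4 for tumor and progenitor markers). Also named are Prdx2 and the 5 nearest genes of Hmox1 and of Keap1, the genes with the smallest p among those lower and those higher. Further genes were named after their values were seen. Gene positions, transcript lengths (CPM per kb uses the mean over protein-coding transcripts) and shared 50-base stretches come from GENCODE M21 (GRCm38), which need not be the authors' annotation.

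Alternatives were RLE, upper-quartile, total-count and housekeeping scaling (Atp5b, Bag6, Cox8a, Hint1, Hnrnpa2b1, Ndufa2), DESeq2 1.42.0, no filter, at least 10 counts in every liver, other thresholds, the longest transcript and leaving out each liver. The fits were tested on simulated data.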

Additional observations from a re-analysis of the deposited data

How the results depend on the processing

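The number of genes called was 567, against 3247 with total counts, 989 with housekeeping genes, 2118 with DESeq2, 1128 without a filter (28631 genes tested), 0 at an adjusted p under 0.01 in edgeR (4241 at an unadjusted p under 0.05), and 0 to 619 with 1 liver left out. It was 394 without sgCtrl 7.1, 619 without sgPrdx2 3.2 and 0 without any of the other livers. Of the 10 genes, 3 were called, against 6 with total counts and 0 to 3 with 1 liver left out. Total counts and housekeeping genes moved the median of all genes from -0.02 to -0.39 and -0.38, and reversed Keap1 (-0.24 and -0.24) and Gclm (-0.18 and -0.17). The 6 housekeeping genes themselves lay higher in sgPrdx2 livers for 5 of 6 genes (median 0.43, 0 called by edgeR, 3 at an unadjusted p under 0.05 and 3 by DESeq2). Total counts brought Nqo1 (-1.14), Gsr (-0.73) and G6pdx (-1.03) past the threshold, and G6pdx passed it also with housekeeping genes (-1.04), DESeq2 (-0.63) and no filter (-0.66). With 1 liver left out, log2 fold changes ranged from -1.13 to -0.85 for Hmox1, from -1.51 to -0.97 for Slc7a11, from -0.79 to -0.54 for G6pdx and from -0.76 to -0.62 for Pgd, and the difference in the ratio of G6pdx to Pgd from -0.026 to 0.12. Relative to all genes, the median of the 10 genes ranged from -0.56 to -0.35 and that of heme and iron handling from -0.078 to 0.30, below 0 without sgPrdx2 3.2. The same range was -0.29 to -0.13 for Nrf2 partners, -0.29 to -0.034 for other Nrf2 targets, -0.052 to 0.17 for cystine and glutathione (below 0 without sgCtrl 5.1, sgCtrl 7.1 or sgPrdx2 3.2), 0.036 to 0.18 for the pentose phosphate pathway and 0.036 to 0.10 for other genes of NADPH supply. The causes were not tested. RLE, upper-quartile scaling and 10 counts in every liver changed no call or direction of the 10 genes. No paired analysis was possible because the mouse numbers of the groups are not shared. With 3 livers against 3, exact tests cannot go under 0.1.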
